A study of Homo sapiens with 6 samples.

Results

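The genes described here encode subunits of the respiratory chain and ATP synthase, with the assembly factors of complex I that carry the NDUFAF name. They were chosen by a rule on gene names, with earlier results of these data known. Among the protein-coding genes of the raw count table it took NDUFA, NDUFB, NDUFC, NDUFS and NDUFV genes, the 4 SDH subunits and UQCR genes. It also took COX4 to COX8 genes, ATP5 genes, and the mitochondrial MT-ND, MT-CO, MT-CYB and MT-ATP genes. NDUFA4L2 was left out. The rule gave 110 of the 58870 genes in the table, 97 of them in the nucleus and 13 on the mitochondrial chromosome. The 13 are called mitochondrial mRNAs below, and each was counted as a gene. The nuclear set also held 2 read-through genes that join a member to its neighbour.

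Electrons from NADH enter the chain at complex I and those from succinate at complex II, pass through coenzyme Q to complex III, then through cytochrome c to complex IV, where oxygen is reduced. Complexes I, III and IV pump protons across the inner mitochondrial membrane, and complex V, the ATP synthase, uses the gradient to make ATP. Complex II is encoded wholly in the nucleus, whereas complexes I, III, IV and V each combine nuclear subunits with proteins made from mitochondrial DNA. The transcripts of that DNA are long precursors read from both strands and cut into shorter messages.

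Gene-level read counts came from 6 RNA libraries of WM164, an established human melanoma cell line grown in RPMI with 5% serum. In 3 libraries the cells carried a control, green fluorescent protein (GFP), and in 3 they carried T-MGM, a single protein in which M-MITF is joined through a flexible linker to MAFG, a small MAF transcription factor. Both were delivered with a lentivirus under an EF1α promoter and blasticidin selection. Nothing in the sources says that the 3 libraries of a group came from separate cultures, so p-values measure the spread between these libraries, which may be technical.

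Total counts were 35057239 to 38738065 for GFP and 44577774 to 59250663 for the libraries labelled T-MGM, so that depth and group cannot be told apart. No rise of MAFG was called in the latter: its normalized counts stood at 2535, 2397 and 2442 in GFP against 2396, 2351 and 2327 in T-MGM (−0.06 ± 0.04 on the log2 scale, DESeq2 adjusted p = 0.236), and MITF rose by 0.08 on the log2 scale. The libraries are therefore called by their labels throughout, and every direction given for them rests on those labels. The 7 melanocyte markers were all detected, with a summed level, in TPM (a share of all transcripts scaled by length), of 1140 to 1170 in GFP and 972 to 1010 in T-MGM. Within that list DESeq2 called 3 higher, MITF among them, and 4 lower. Mean TPM was lower in T-MGM for all 7, so the scales differ in sign for those 3. Mean levels went from 69.5 to 39.8 TPM for MLANA, from 37.1 to 26.5 for TYR and from 56.4 to 8.6 for DCT. They went from 138 to 133 for MITF, from 416 to 403 for SOX10, from 252 to 237 for PMEL and from 183 to 142 for S100B. Markers of keratinocytes, leukocytes and endothelial cells summed to at most 1.3 TPM in any library. The 6 fibroblast markers summed to 4.11 to 4.64 TPM in GFP and 4.54 to 6.72 TPM in T-MGM, and their part in the results was not tested.

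The respiratory chain genes changed by less than 2-fold where they passed the test. Of 19135 genes that DESeq2 tested, 4.63% passed an adjusted p of 0.05 with over 2-fold change, and 0 of the 110 members did, at an unadjusted p under 0.05 and in edgeR as well. At the adjusted p alone, 19.2% of all tested genes passed upwards and 19.2% downwards in T-MGM over GFP. Among the 91 nuclear members tested, 24 (26.4%) rose, 18 (19.8%) fell and 49 did not pass. Among the 13 mitochondrial members, 11 (84.6%) rose, 1 (MT-ND6) fell and 1 (MT-ATP8) did not pass. The median log2 fold change was 0.02 over the nuclear members and 0.15 over the mitochondrial ones, beside −0.00273 over all tested genes. Every library of 1 group lay above every library of the other for 52 of the 91 nuclear and 12 of the 13 mitochondrial members, and for 46.8% of all tested genes. The members are not matched to that background in level. Of the 19135 tested genes 12652 averaged at least 50 normalized counts, while 89 of the 91 nuclear members averaged at least 100. The nuclear split moved with the scaling: 17 members rose and 34 fell with total-count scaling, 20 and 22 after correction for GC content and length, and 8 and 45 in limma on log2(TPM + 1). For these settings the median of all genes, here and below, is taken over genes that averaged at least 50 normalized counts (−0.0097 with the main scaling). It was −0.06 under the first and −0.13 under the last. The nuclear median relative to it was 0.03 with the main and total-count scaling, −0.00262 after the correction and −0.01 on TPM.

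**Figure D1:**
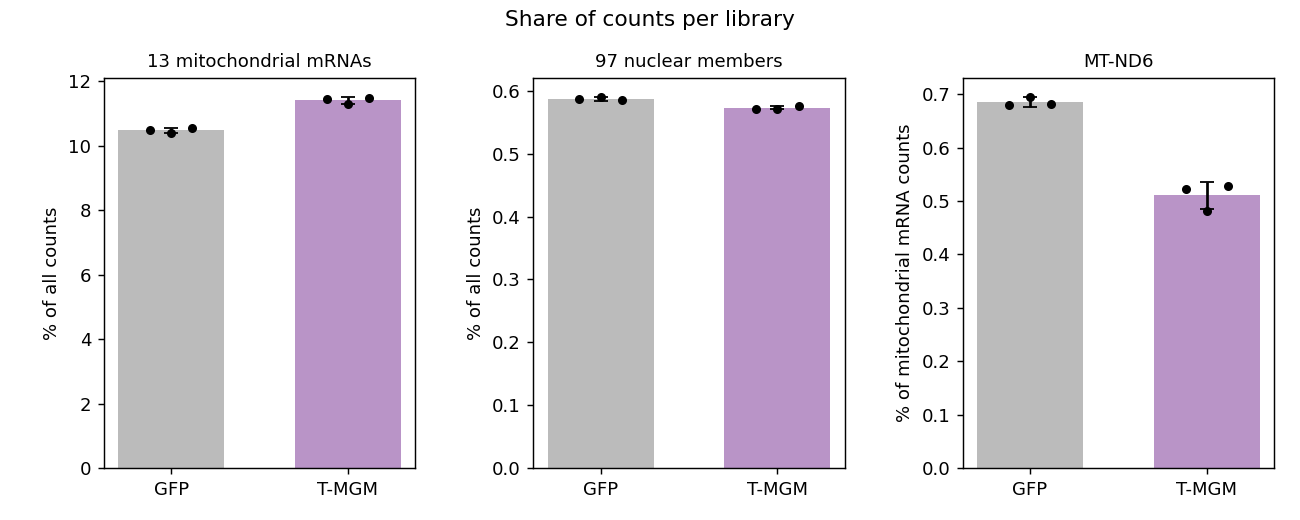
Share of counts in each library (y axis, percent) for the 13 mitochondrial mRNAs, the 97 nuclear members and MT-ND6 (the last as a share of the mitochondrial mRNA counts), by group as labelled. Bars are means, error bars SD (n = 3) and points single libraries. The mitochondrial share is higher in all 3 T-MGM libraries (11.29 to 11.49%) than in GFP (10.38 to 10.55%), the nuclear share is slightly lower, and the MT-ND6 share is lower.

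The 13 mitochondrial mRNAs took 10.48%, 10.38% and 10.55% of all counts in GFP, against 11.46%, 11.29% and 11.49% where the label was T-MGM, or 10.5% ± 0.087 against 11.4% ± 0.108 (SD, n = 3 each). The groups did not overlap, and the difference of 0.945 percentage points was larger than either SD. As a share of protein-coding counts the difference was 1.1 points. The size of the rise depended on the unit: relative to GFP it was 9.07% on all counts and 9.94% on protein-coding counts, while the share of protein-coding TPM went from 31.4% to 31.92%, a rise of 1.66% without overlap, and the sum of all mitochondrial mRNA TPM fell by 3.37% without overlap (193000 to 186500). MT-ATP8 alone, the largest part of that sum, went from 77980 to 71070 TPM, a greater fall than that of the whole sum. The nuclear members together took 0.588% ± 0.00306 of counts in GFP and 0.573% ± 0.00271 in T-MGM. The ratio of mitochondrial to nuclear member counts was thus 17.86, 17.56 and 18.04 in GFP against 20.05, 19.75 and 19.95 in T-MGM, with all 3 labelled T-MGM above all GFP libraries. The share of the mitochondrial rRNAs overlapped between the groups (0.316 to 0.385% in GFP, 0.350 to 0.498% in T-MGM). An exact permutation test of 3 against 3 libraries cannot reach p < 0.05, so the shares are given without one.

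Among the 7 mitochondrial subunits of complex I, 6 rose. MT-ND5 (chrM:12337-14148, plus strand), an antiporter-like subunit at the far end of the membrane arm, had the largest mitochondrial change, with 344600, 332000 and 348000 normalized counts in GFP against 450100, 452100 and 452000 in T-MGM. Its log2 change was 0.40 ± 0.02 (SE here and below) at a DESeq2 adjusted p of 1.46e-137, a 32.2% higher level with wide separation of the groups. MT-ND1, beside the quinone site, had 310200, 305200 and 313000 in GFP against 396800, 356800 and 408300 in T-MGM (0.32 ± 0.06, DESeq2 adjusted p = 2.6e-07), and T-MGM replicate 2 lay well under the other 2. MT-ND2 rose by 0.26 and MT-ND4 by 0.20, both proton-pumping subunits of the membrane arm. The 2 shortest mitochondrial genes of complex I, MT-ND3 (0.15 ± 0.05, DESeq2 adjusted p = 0.00998) and MT-ND4L (0.12 ± 0.05, DESeq2 adjusted p = 0.0456), passed narrowly. Leaving out any library except T-MGM replicate 2 or GFP replicate 3 took MT-ND3 to adjusted p-values of 0.0699 to 0.0871, and leaving out any library except T-MGM replicate 2 took MT-ND4L to 0.111 to 0.198.

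MT-ND6 was the exception. It is the only one of these genes read from the opposite (light) strand, at chrM:14149-14673, next to MT-ND5. Its normalized counts were 29940, 30270 and 30180 in GFP against 26000, 23600 and 26570 in T-MGM, or −0.25 ± 0.05 on the log2 scale (DESeq2 adjusted p = 9.09e-06). Its share of the mitochondrial mRNA counts was 0.6798%, 0.6954% and 0.6808% in GFP against 0.5216%, 0.4806% and 0.5286% in T-MGM. The groups did not overlap on either measure. The kit given in the labels does not keep strand and the kit given in the methods does, and whether reads of heavy-strand RNA over this gene were kept apart from its own was not tested.

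MT-CYB, the mitochondrial subunit of complex III, rose by 0.24 ± 0.01 on the log2 scale (381600, 377300 and 384000 in GFP; 449700, 450100 and 449500 in T-MGM). The 3 core complex IV subunits rose less. MT-CO2 rose by 0.15, MT-CO1 by 0.09 (1169000, 1155000 and 1182000 in GFP; 1233000, 1240000 and 1248000 in T-MGM) and MT-CO3 by 0.07, with no overlap of the groups in any. For complex V, MT-ATP6 rose by 0.11 ± 0.01, and MT-ATP8 had 103600, 103600 and 103000 in GFP against 109900, 102200 and 110200 in T-MGM (0.05 ± 0.04, DESeq2 adjusted p = 0.235). T-MGM replicate 2 was again the low library, and without it MT-ATP8 passed at 0.09 (DESeq2 adjusted p = 1.35e-17). edgeR also called MT-ATP8 higher (adjusted p = 0.0192).

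**Figure D2:**
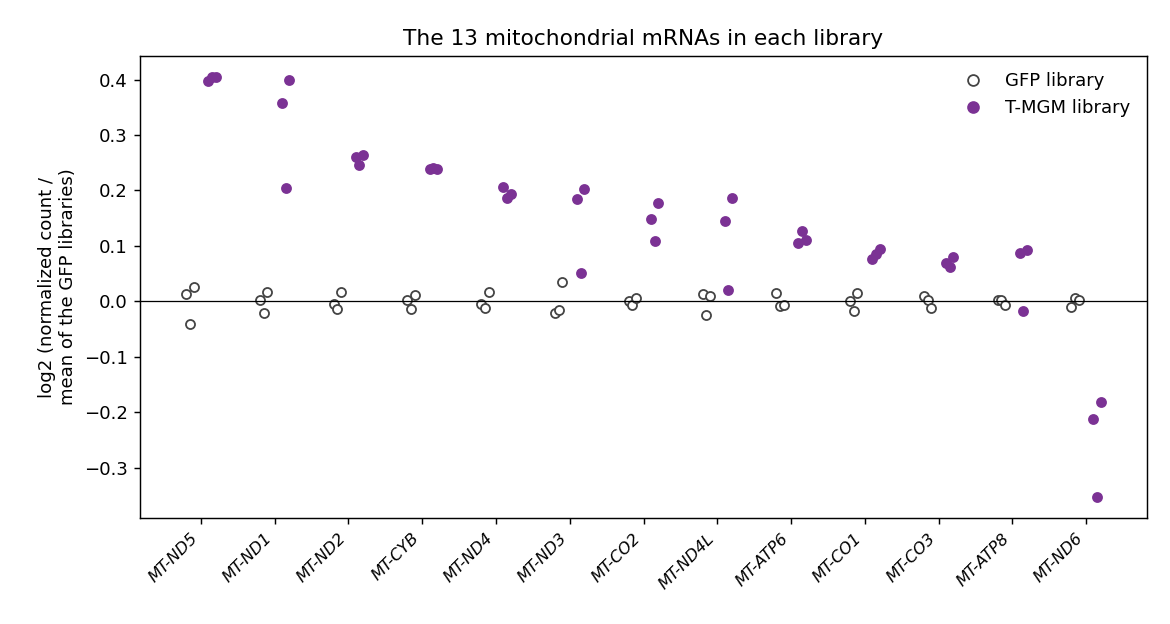
Each mitochondrial mRNA (x axis) in each library, as the log2 ratio of its normalized count to the mean of the GFP libraries (y axis); open points are GFP and filled points are libraries labelled T-MGM. The filled points lie above the open ones for 11 genes, overlap them for MT-ATP8 and lie under them for MT-ND6; on the TPM scale MT-CO1, MT-CO3 and MT-ATP8 turn to lower.

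The direction for the smaller mitochondrial changes depended on the scale. On log2(TPM + 1) the median of all genes itself stood at −0.13 and that of the 13 mitochondrial mRNAs at −0.02, or 0.11 above it, and limma called 4 of them higher (MT-ND1, MT-ND2, MT-ND5 and MT-CYB) and 4 lower (MT-ND6, MT-CO1, MT-CO3 and MT-ATP8). With total-count scaling, where the median of all genes was −0.06, 7 were higher. Relative to the other genes the mitochondrial median was thus above 0 on every scale tried, from 0.10 to 0.18. MT-ND5, MT-ND1, MT-ND2, MT-CYB and MT-ND4 were above 0 on each of them, and MT-ND6 was under 0.

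Compared per length, as TPM, the mitochondrial genes spanned from 1846 ± 16.9 (MT-ND6) to 77980 ± 1550 (MT-ATP8) in GFP (SD, n = 3). MT-CO1 (16900 ± 204) and MT-CO2 (16350 ± 114) followed MT-ATP8. MT-ND1 (7995 ± 107) lay just above MT-CYB (7884 ± 76.2), and MT-ND5 (4105 TPM) was second lowest. The value of MT-ATP8 is uncertain, since the gene is short and shares bases with MT-ATP6, as MT-ND4L does with MT-ND4. Those shared stretches are shown because a read that lies on them cannot be given to 1 gene; capitals mark the bases that belong to both genes and 12 bases stand on each side (GRCh38):
MT-ATP8 and MT-ATP6, chrM:8515-8584, plus strand: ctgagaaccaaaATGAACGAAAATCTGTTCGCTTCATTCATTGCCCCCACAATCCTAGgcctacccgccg
MT-ND4L and MT-ND4, chrM:10748-10778, plus strand: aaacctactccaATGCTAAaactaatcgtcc
The first overlap spans 46 bases and the second 7. Copies of mitochondrial genes in the nuclear genome also took reads: annotated copies held 1.65% as many counts as the members, most of them in MTATP6P1 (0.148 to 0.160% of all counts) and MTND2P28. Copies of nuclear members held 0.034% as many counts as their members.

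**Figure D3:**
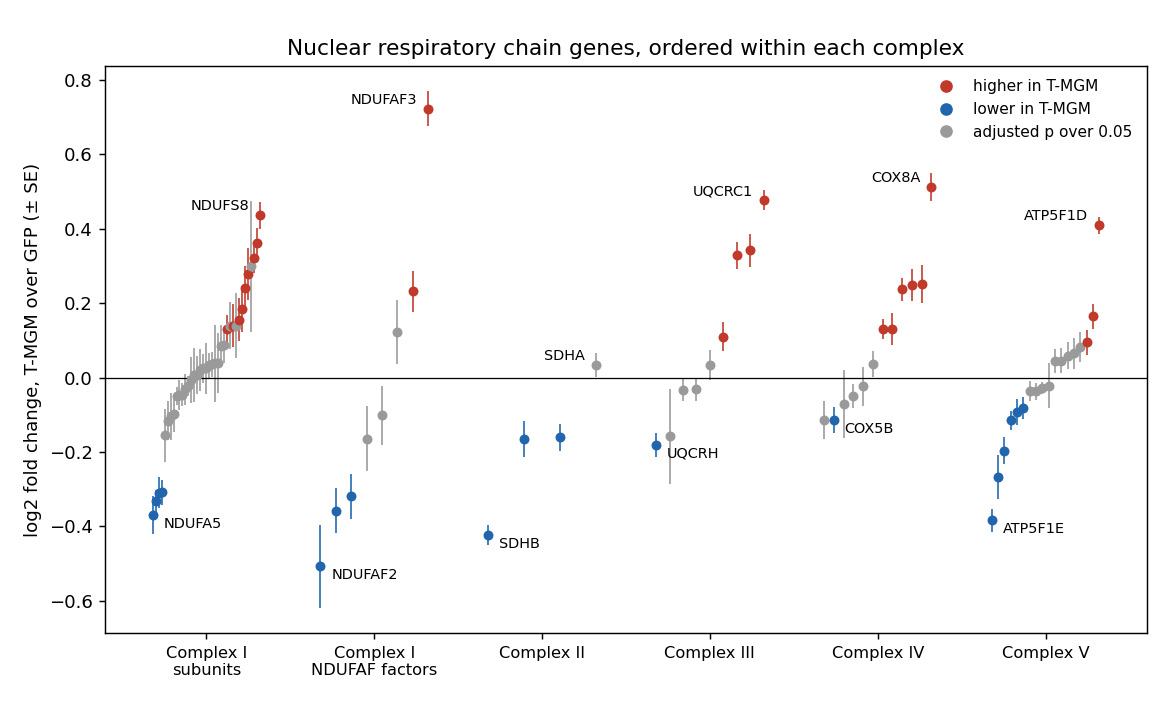
log2 fold change of each nuclear member that averaged at least 100 normalized counts (y axis, T-MGM over GFP as labelled, error bars SE), ordered within each complex along the x axis. Red points passed a DESeq2 adjusted p of 0.05 as higher, blue ones as lower and grey ones did not pass. Every complex but complex II holds members in both directions, and complex II holds 3 that were lower and SDHA near 0. Of all tested genes 19.2% were higher and 19.2% lower.

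Complex I has 37 nuclear subunits here, of which 9 (24.3%) rose, 4 (10.8%) fell and 24 did not pass (median 0.03). The counts for each complex, here and below, stand beside 19.2% of all tested genes higher and 19.2% lower. The catalytic core subunits of nuclear origin moved in both directions. NDUFS8, which holds iron-sulfur clusters in the arm leading to the quinone site, had 2495, 2583 and 2576 normalized counts in GFP against 3392, 3591 and 3386 in T-MGM, so all 3 labelled T-MGM were above all GFP libraries (0.44 ± 0.04, DESeq2 adjusted p = 5.38e-32). NDUFV1, which binds the flavin that accepts electrons from NADH, rose by 0.36. NDUFS1, the iron-sulfur subunit beside it, fell by 0.33 on the log2 scale (5701, 5368 and 5647 against 4370, 4386 and 4523). NDUFV2 and NDUFS3 had −0.12 and 0.09 and did not pass.

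Of the 30 other complex I subunits, 7 rose, 2 fell and 21 did not pass. The 7 were NDUFA11 (0.32), NDUFA8 (0.28), NDUFA7 (0.24), NDUFA3 (0.19), NDUFA13 (0.16), NDUFB8 (0.14) and NDUFB10 (0.13), and 5 of these changes were under 0.25. Those same 5 did not pass after correction for GC content and length, where NDUFA7, NDUFA3 and NDUFB8 stood at 0.11, 0.06 and 0.02 and the signs of NDUFA13 (−0.04) and NDUFB10 (−0.04) turned. NDUFA5, an accessory subunit of the peripheral arm, had 1663, 1539 and 1640 in GFP against 1250, 1241 and 1256 in T-MGM, and fell by 22.6% (−0.37 ± 0.05, DESeq2 adjusted p = 2.66e-12). NDUFB3, in the membrane arm, fell by 0.31. The groups did not overlap for either. The 21 that did not pass lay between −0.15 (NDUFB5) and 0.30 (NDUFB1, SE 0.18).

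The 8 NDUFAF assembly factors, which help to build complex I and are not part of it, held the largest changes of all tested members in both directions. NDUFAF3 (chr3:49020459-49023495, plus strand) had 1401, 1337 and 1475 in GFP against 2247, 2392 and 2307 in T-MGM, a 64.9% rise (0.72 ± 0.05, DESeq2 adjusted p = 2.33e-51). NDUFAF2, a factor of late assembly, had 497.7, 463.4 and 472.9 in GFP against 339.4, 279.0 and 385.9 in T-MGM, and fell by 29.6% (−0.51 ± 0.11, DESeq2 adjusted p = 2.27e-05). The groups stood apart for both, with the T-MGM libraries of NDUFAF2 widely spread. NDUFAF8 rose by 0.23. NDUFAF7, a methyltransferase, fell by 0.36 and NDUFAF5, which hydroxylates NDUFS7, fell by 0.32. NDUFAF1, NDUFAF4 and NDUFAF6 did not pass (−0.16, −0.10 and 0.12).

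Complex II, which also belongs to the tricarboxylic acid cycle, was lower in 3 of its 4 subunits. SDHB (chr1:17018664-17054032, minus strand), the iron-sulfur subunit, had 5971, 6199 and 6127 in GFP against 4485, 4607 and 4568 in T-MGM, and fell by 25.4% (−0.42 ± 0.03, DESeq2 adjusted p = 2.46e-55). The membrane anchor subunits SDHC (3665, 3650 and 3910 against 3485, 3306 and 3256) and SDHD (1499, 1593 and 1575 against 1399, 1381 and 1383) fell by 0.16 and 0.17. No GFP library reached down to a T-MGM library in any of the 3. SDHA, the flavoprotein that oxidises succinate, had 4258, 4129 and 4097 in GFP against 4065, 4306 and 4390 in T-MGM, with overlapping groups and a 95% interval of −0.03 to 0.10 for its log2 fold change. The summed TPM of the 4 was 242.7, 249.8 and 255.4 in GFP against 190.6, 191.3 and 182.7 in T-MGM, without overlap, where the median of all genes was also lower on that scale. SDHD did not pass after correction for GC content and length (−0.07, DESeq2 adjusted p = 0.324), and SDHC did not in limma on log2(TPM + 1) (−0.28, adjusted p = 0.056).

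**Figure D4:**
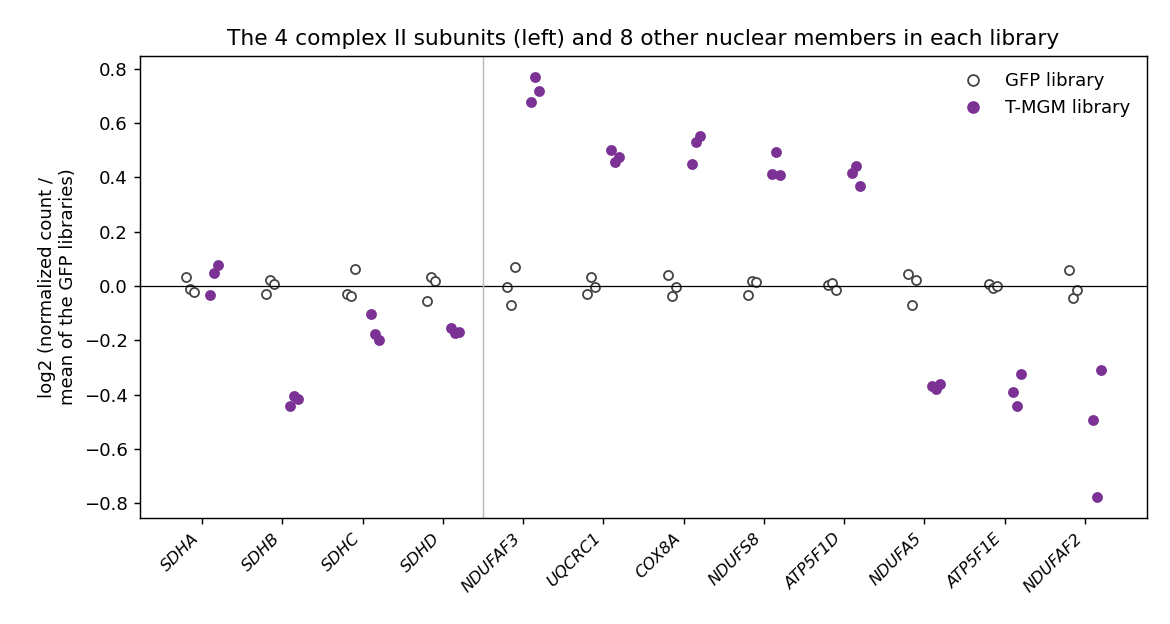
Normalized count of the 4 complex II subunits and 8 other nuclear members (x axis) in each library, as the log2 ratio to the mean of the GFP libraries (y axis); open points are GFP, filled points libraries labelled T-MGM. SDHA overlaps between the groups, while SDHB, SDHC, SDHD and the 8 others do not.

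Of the 9 complex III genes that the name rule took, 4 rose, 1 fell and 4 did not pass. Of all tested genes 19.2% rose and 19.2% fell. UQCRC1 (chr3:48599002-48610976, minus strand), a core subunit on the matrix side, had 4319, 4507 and 4398 in GFP against 6233, 6042 and 6132 in T-MGM (0.48 ± 0.03, DESeq2 adjusted p = 1.71e-67), a 39.2% rise with the groups far apart. Its core partner UQCRC2 did not pass (−0.03 ± 0.03). The small subunits UQCR10 (0.34), UQCRQ (0.33) and UQCR11 (0.11) rose, and UQCRFS1, the Rieske iron-sulfur protein, had 0.03. UQCRH, the hinge protein that meets cytochrome c1, had 4628, 4879 and 4471 in GFP against 4086, 4078 and 4169 in T-MGM and fell by 0.18. UQCRHL, a close copy of UQCRH on the same chromosome, was low (2.64 TPM in GFP, against 268.6 for UQCRH). It did not pass (−0.16, 95% interval −0.41 to 0.09). Reads shared by such a pair are left out of the counts and may have been split in the TPM values, so both are uncertain.

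Of the 18 complex IV genes, 12 were tested, of which 6 rose, 1 fell and 5 did not pass (median 0.08). Of all tested genes 19.2% rose and 19.2% fell. COX8A (chr11:63974620-63976543, plus strand), the smallest subunit, had 2441, 2316 and 2371 in GFP against 3242, 3428 and 3486 in T-MGM, a 42.6% rise without overlap (0.51 ± 0.04, DESeq2 adjusted p = 1.06e-39). COX7A2 (0.25), its relative COX7A2L (0.25), which is known for joining complexes III and IV in supercomplexes, and COX5A (0.24) rose by similar amounts. COX6A1 and COX4I1 rose by 0.13 each. COX5B fell by 0.11 (3442, 3304 and 3479 against 3227, 3043 and 3172), and without T-MGM replicate 2 its change was −0.09 (DESeq2 adjusted p = 0.0515). COX6B1 (0.04, 95% interval −0.03 to 0.11), COX7B (−0.12, −0.22 to −0.02), COX7C, COX6C and NDUFA4, which is named for complex I but is a subunit of complex IV (−0.05, −0.11 to 0.01), did not pass. COX6A1 is the least certain of those that rose, since leaving out any library but GFP replicate 3 or T-MGM replicate 1 took its adjusted p to 0.0508 to 0.0643, and COX6A1 and COX4I1 were close to 0 after the GC and length correction (0.03 and 0.04).

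The tissue-restricted isoforms of complex IV were at or near 0. COX4I2, COX6A2, COX7A1 and COX7B2, whose main sites are lung, muscle and testis, had 0 counts in all 6 libraries, and a count of 0 allows at most 3 counts of a library's total. COX6B2 and COX8C, testis forms, had at most 3.25 normalized counts in any library and were not tested. The widespread counterparts COX4I1 (219.9 ± 2.47 TPM), COX6B1 (185.2 ± 2.55), COX8A (161.5 ± 4.09), COX6A1 (116.2 TPM), COX7A2 (82.5 TPM) and COX7B (25.0 TPM) held the counts in the GFP libraries, and the restricted forms were at or near 0 in both groups.

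Complex V had 3 of its 19 genes (15.8%) higher, 6 (31.6%) lower and 10 not passed. Of all tested genes 19.2% were higher and 19.2% lower. In the catalytic F1 head, ATP5F1D, the delta subunit of the central stalk, had 6527, 6548 and 6442 in GFP against 8681, 8839 and 8402 in T-MGM (0.41 ± 0.02, DESeq2 adjusted p = 6.34e-63), and its change was 0.17 after the GC and length correction. Its stalk partner ATP5F1E (chr20:59025475-59032345, minus strand), the epsilon subunit, moved the other way, with 5203, 5158 and 5182 in GFP against 3954, 3814 and 4135 in T-MGM (−0.38 ± 0.03, DESeq2 adjusted p = 2.03e-34). Neither overlapped between the groups. ATP5F1A (alpha, −0.12) and ATP5F1C (gamma, −0.08) fell, while ATP5F1B (beta), the member with the most counts among nuclear genes, had −0.03 (DESeq2 adjusted p = 0.14).

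The 3 genes for the c subunit, which encode the same mature ring protein, differed. ATP5MC2 rose by 0.16 (3239, 3208 and 3130 against 3508, 3730 and 3502), ATP5MC3 fell by 0.20 (3047, 2961 and 3142 against 2617, 2690 and 2674), and ATP5MC1 did not pass (0.08, 95% interval 0.0018 to 0.16). Neither of the calls held after correction for GC content and length, where they were 0.04 and −0.04. Of the other Fo and stalk genes, ATP5PD rose by 0.09, and ATP5MD (−0.27), an accessory subunit of the membrane part, and ATP5MF (−0.09) fell. ATP5IF1, the inhibitor of ATP hydrolysis, had 3063, 3171 and 3051 in GFP against 3175, 3205 and 3202 in T-MGM; these just failed to overlap and the test did not pass (0.05, 95% interval −0.02 to 0.11). ATP5MGL, a copy of ATP5MG, had at most 10.8 normalized counts. The 2 read-through genes, ATP5MF-PTCD1 and NDUFC2-KCTD14, share exons with members and did not pass (0.04 and −0.06).

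Per length, the most abundant nuclear members were ATP5MF (450.4 ± 16.6 TPM in GFP and 370.4 ± 11.0 in T-MGM) and ATP5F1D (365.7 ± 4.6 and 442.9 ± 19.4), which changed places between the groups. UQCRH (268.6 ± 11.3), NDUFB9 (265.0 ± 7.51) and ATP5F1B (262.2 ± 10.2) came next in GFP and did not differ from each other there beyond their spread. In T-MGM they stood at 211.5 ± 1.71, 230.4 ± 6.39 and 236.9 ± 7.46. Summed TPM over the 97 nuclear members was 8082 ± 61.8 in GFP and 7460 ± 69.7 in T-MGM, and 193000 ± 2610 and 186500 ± 1970 over the mitochondrial ones. Both sums were lower without overlap on this scale, on which the median of all genes was lower too. MT-ATP8 alone (77980 to 71070) fell by more than the mitochondrial sum.

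**Figure D5:**
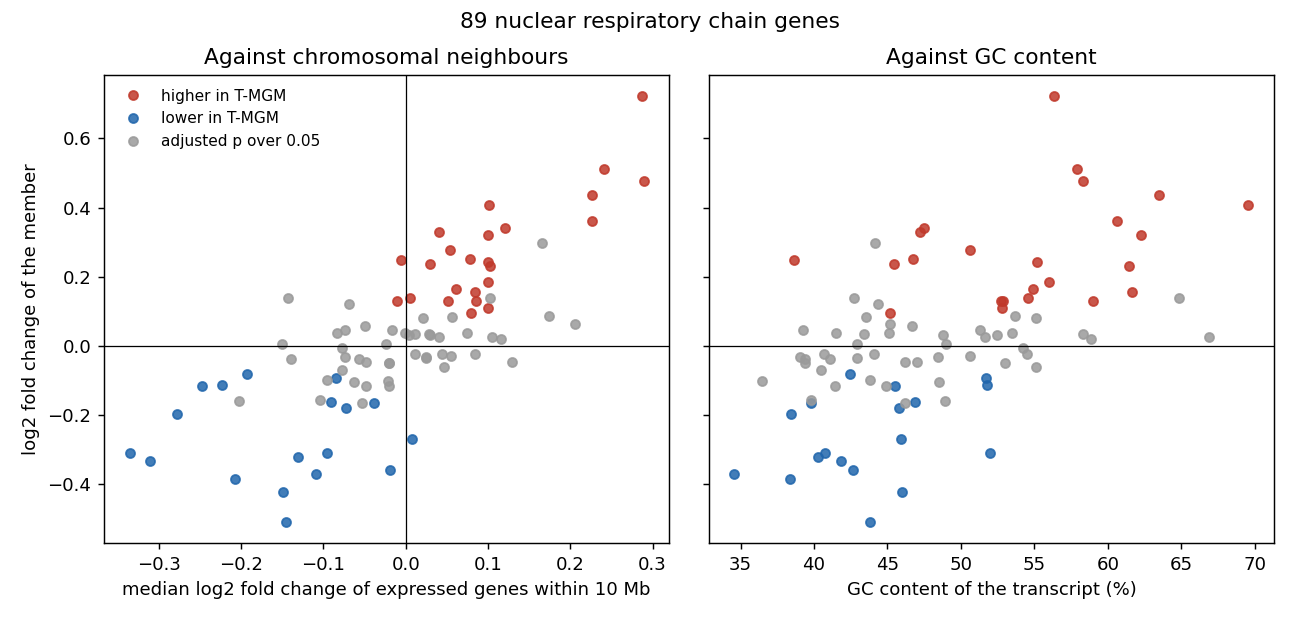
log2 fold change of 89 nuclear members that averaged at least 100 normalized counts (y axis, T-MGM over GFP as labelled) against the median of the expressed genes within 10 Mb (left) and against the GC content of the transcript in percent (right). Points are genes, coloured by their DESeq2 call; members rise to the right in both panels (Pearson r 0.756 and 0.552).

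The change of a nuclear member moved with that of the genes around it. For each member, the median log2 fold change was taken over the other tested genes that start within 10 Mb and average at least 50 normalized counts. Across 89 members with a mean count of at least 100, member and neighbour median had Pearson r = 0.756 and Spearman rho = 0.746, given as a description because members that lie close together share neighbours and all share the same 6 libraries. Of the 24 members that rose, 22 had a neighbour median above 0, and of the 18 that fell, 17 had one under 0. NDUFAF3 and UQCRC1 lie close together on chromosome 3, where the neighbour median was 0.29 for both. NDUFS1 and NDUFB3 on chromosome 2 had −0.31 and −0.34, close to their own changes. The neighbour medians were 0.24 for COX8A, 0.23 for NDUFS8, −0.15 for SDHB and −0.21 for ATP5F1E. By chromosome, 6 of 10 members on 19 rose and 0 fell, 0 of 8 on 1 rose and 4 fell, and 1 of 7 on 2 rose and 5 fell. Others were mixed: 3 of 8 on 11 rose and 1 fell, and 1 of 7 on 5 rose and 1 fell. These small counts stand beside 19.2% of all tested genes in each direction.

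The change also moved with GC content (r = 0.552, rho = 0.547 across the 89). Of the 91 tested members, the 23 with the lowest GC content (34.59 to 42.9%) had 1 that rose and 9 that fell, and the 23 with the highest (54.19 to 69.55%) had 14 and 0. Over all tested genes, of any GC content, 19.2% rose and 19.2% fell. After a correction for GC content and length fitted on all genes, r was 0.105 (rho = 0.046) with GC content and 0.616 (rho = 0.504) between member and neighbours, members with the sign of their neighbour median went from 69 to 54 of the 89, 20 members were higher, 22 were lower, and the nuclear median was −0.00757. Of the 24 that rose, 14 stayed higher after it and 10 did not pass; of the 18 that fell, 15 stayed lower. The sign of NDUFA13 and NDUFB10 turned, without passing. NDUFAF3 (0.59), UQCRC1 (0.34), COX8A (0.34), SDHB (−0.43) and ATP5F1E (−0.23) kept their calls, and complex I had 5 higher and 9 lower in place of 9 and 4. What part regional position or base composition had in the changes was not tested.

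Promoter sequences of 300 bases, from 250 before to 50 after the start site, were found in RefSeq (GRCh38.p14) for 78 of the 97 nuclear members. Motifs were searched on both strands. Where a member had several windows, the one nearest the start of its canonical transcript was taken. The windows set against them were not limited to expressed genes or to a single window per gene, so the sets are unlike. CCGGAAG, the core of ETS family sites such as that of GABP, stood in 23 of the 78 (29.5%), against 10.3% of all 35116 promoter windows, and GCGCATGC, the centre of the NRF1 site, in 15 (19.2%), against 3.05%. These 2 factors are the classical activators of nuclear respiratory genes. CACGTG, the E box, stood in 8 (10.3%, against 7.26%). The MITF-type letters TCATGTG stood in 1 (COX7B2, at 0 counts here; 1.28%, against 2.92%) and TCACGTG, which holds the E box, in 3 (3.85%, against 3.71%), namely NDUFA7, NDUFAF5 and ATP5ME. TGACTCA, the AP-1 letters, which MAF-type sites also hold, stood in 0 of the 78, against 4.95%. The ETS letters were in 8 of 23 members that rose and 7 of 14 that fell, and the NRF1 letters in 3 and 6; of 37 that did not pass, 8 held the ETS and 6 the NRF1 letters. A match of letters is a description and not evidence of binding.

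The promoters of the 2 subunits with the largest rise and the 2 with the largest fall are shown so that they can be compared; capitals mark ETS or NRF1 letters on either strand:
COX8A promoter, chr11:63974370-63974669, plus strand: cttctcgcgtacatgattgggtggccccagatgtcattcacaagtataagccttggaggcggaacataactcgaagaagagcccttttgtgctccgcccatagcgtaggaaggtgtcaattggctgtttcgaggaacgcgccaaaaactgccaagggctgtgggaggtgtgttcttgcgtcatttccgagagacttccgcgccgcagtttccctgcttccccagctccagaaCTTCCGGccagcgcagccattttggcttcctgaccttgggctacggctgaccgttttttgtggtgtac
UQCRC1 promoter, chr3:48609597-48609896, minus strand: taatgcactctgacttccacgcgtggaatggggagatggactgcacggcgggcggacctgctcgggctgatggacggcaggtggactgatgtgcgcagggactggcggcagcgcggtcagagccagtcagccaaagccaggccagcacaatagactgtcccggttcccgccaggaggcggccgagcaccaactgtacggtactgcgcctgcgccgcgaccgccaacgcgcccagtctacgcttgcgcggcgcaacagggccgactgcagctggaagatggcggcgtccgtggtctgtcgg
SDHB promoter, chr1:17053983-17054282, minus strand: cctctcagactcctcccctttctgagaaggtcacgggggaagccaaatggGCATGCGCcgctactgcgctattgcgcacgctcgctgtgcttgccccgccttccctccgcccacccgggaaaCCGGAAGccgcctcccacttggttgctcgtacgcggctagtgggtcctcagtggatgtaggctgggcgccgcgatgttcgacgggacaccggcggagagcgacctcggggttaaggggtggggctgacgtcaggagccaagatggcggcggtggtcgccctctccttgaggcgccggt
ATP5F1E promoter, chr20:59032286-59032585, minus strand: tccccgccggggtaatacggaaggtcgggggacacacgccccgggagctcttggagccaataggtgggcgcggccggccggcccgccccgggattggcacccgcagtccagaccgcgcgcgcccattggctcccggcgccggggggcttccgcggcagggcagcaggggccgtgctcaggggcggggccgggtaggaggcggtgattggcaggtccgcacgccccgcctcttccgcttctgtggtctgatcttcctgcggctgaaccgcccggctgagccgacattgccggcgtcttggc
COX8A holds 1 ETS match and SDHB holds 1 ETS and 1 NRF1 match. UQCRC1, which rose, and ATP5F1E, which fell, hold none of the 6 motifs in this window.

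Other lists around the chain were drawn up by function. Their counts here and below stand beside 19.2% of all tested genes higher and 19.2% lower, and no list was tested as a set. Of the factors that build complexes II to V and the remaining factors of complex I, all 6 complex III factors passed, with 2 higher and 4 lower; BCS1L, which inserts the Rieske protein, fell by 0.45 (1277, 1246 and 1222 normalized counts against 949.7, 931.7 and 868.6), and UQCC1 fell by 0.38. Of 24 complex IV factors, 3 rose and 6 fell. Among them COA7 had 2541, 2705 and 2717 in GFP against 1682, 1575 and 1610 in T-MGM (−0.71 ± 0.04, DESeq2 adjusted p = 2.14e-59), and HIGD2A rose by 0.46. Of 11 other complex I factors, 1 rose (DMAC1, 0.39) and 4 fell (among them DMAC2, −0.20). Of 4 complex II factors SDHAF2 alone rose (0.25), with SDHAF1 at 0.10 (not passed), and of 5 ATP synthase factors ATPAF2 alone did (0.25, adjusted p = 0.0346 in DESeq2, and 0.069 to 0.222 without any 1 of 4 libraries), with TMEM70 at −0.13 (not passed).

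Genes that carry electrons or make coenzyme Q rose in 4 and fell in 3 of 18 cases. The list holds CYC1, cytochrome c1, a complex III subunit that the name rule did not take. It rose by 0.18 (DESeq2 adjusted p = 7.23e-06) and was at 0.00626 after the GC and length correction. CYCS, cytochrome c, fell by 0.25 (9122, 8887 and 8873 against 7765, 7339 and 7456) and GPD2, the glycerophosphate dehydrogenase of the inner membrane, by 0.14; the latter was at −0.000348 after the GC and length correction. Of 13 tricarboxylic acid cycle genes, 5 rose and 5 fell. FH, which follows complex II in the cycle, fell by 0.39 (2661, 2756 and 2862 against 2081, 2108 and 2126), and DLD fell by 0.24; after the GC and length correction CYCS, FH and DLD stood at −0.15, −0.34 and −0.08.

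Genes for the transcription, replication and RNA upkeep of mitochondrial DNA did not rise in any of the 18 tested, and 8 fell (0 rose and 9 fell at an unadjusted DESeq2 p under 0.05, and 0 and 8 in edgeR). TFAM, which packages mitochondrial DNA and starts its transcription, had 5758, 5613 and 5697 in GFP against 4795, 4717 and 4722 in T-MGM (−0.26 ± 0.03, DESeq2 adjusted p = 1.69e-22), and LRPPRC, which stabilises mitochondrial mRNAs, fell by 0.16. After the GC and length correction TFAM stood at −0.09 (DESeq2 adjusted p = 0.00283) and LRPPRC at −0.06 (DESeq2 adjusted p = 0.00866). These libraries are the ones in which 11 of the 13 mitochondrial mRNAs rose. The 78 mitochondrial ribosomal proteins had 13 higher and 26 lower (median −0.05), beside 19.2% of all tested genes in each direction. MRPS5 fell by 0.45 and MRPS6 rose by 0.23. Of 9 nuclear regulators 0 rose and 3 fell in DESeq2 (0 and 4 at an unadjusted p under 0.05, and 0 and 3 in edgeR), with PPARGC1B, a coactivator of respiratory genes, at 1776, 1599 and 1784 in GFP against 1145, 1277 and 1277 in T-MGM (−0.48 ± 0.06, DESeq2 adjusted p = 3.47e-16) and YY1 at −0.08.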

How the data were processed

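RNA was sequenced from 3 GFP and 3 T-MGM libraries of WM164, grouped by their labels. Per the labels and the study's methods, the authors trimmed reads with cutadapt 1.8.1, aligned them to GRCh38 with STAR 2.7.7a and deposited featureCounts counts of uniquely mapped reads per gene (unit: raw counts), and separately TPM values estimated with RSEM 1.3.0. The annotation release is not given in the sources used here. Unique mapping leaves out reads shared by close copies, and the TPM values, scaled to a fixed sum, move with the most abundant genes.

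Counts were tested with DESeq2 1.42.0 (2-sided Wald test, group only, no shrinkage, independent filtering at 0.05, Benjamini-Hochberg over all genes) in R 4.3.3; normalized counts are counts divided by its size factors, printed to 4 significant digits. Members over 2-fold, all 13 mitochondrial mRNAs, the 2 largest changes in each direction per complex among those passing with a mean count of at least 100, isoforms, complex II and ATP5IF1 were to be named, and from every other list the 2 genes with the largest Wald statistic; other members that passed were named after their values were seen, to account for the set, and 1 item is not reported here. CYC1 was named outside this rule, as a complex III subunit. Members and lists were chosen with earlier results of these data known. The list of mitochondrial DNA upkeep genes held 19 names, of which PRORP was not matched. Positions, GC content and lengths came from GENCODE 44, which held 99.4% of the gene IDs. The GC and length correction used lowess curves (span 0.3). Alternatives were edgeR 4.0.16, limma 3.58.1 on log2(TPM + 1) or log2(TPM + 0.1) of genes with at least 0.5 TPM, other scalings and filters, a replicate block and each library left out. The fits were tested on simulated data. Replicates of a group differed by more than sampling noise (chi-square per degree of freedom 2.848 to 5.58, over genes that averaged at least 50 counts). Intervals cover 95%. There were 3 libraries per group and 35057239 counts or more in each. Whether the spread between libraries or depth limits precision more was not tested for single members.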

Additional observations from a re-analysis of the deposited data

How the results depend on the processing

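No member passed over 2-fold under any alternative in DESeq2, edgeR or limma, and edgeR (25 nuclear members higher, 18 lower; 12 mitochondrial higher, 1 lower), TMM factors, size factors from nuclear genes and the filters on low counts moved no count of calls by over 1.5 times. Depth was higher in all 3 libraries labelled T-MGM, and the difference in mitochondrial share was 0.516 percentage points of protein-coding TPM and 1.1 of protein-coding counts, from unlike levels (31.4% and 11.07% in GFP). Where values changed below, the cause was not tested.

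Without 1 library, nuclear members higher ranged from 19 to 24 and lower from 15 to 18, mitochondrial members higher from 9 to 12, the nuclear median from 0.00856 (without GFP replicate 2) to 0.0275, the mitochondrial median from 0.1203 to 0.1683 and the difference in mitochondrial share from 0.9 to 1.01 points; YY1 did not pass without T-MGM replicate 1 (−0.07, DESeq2 adjusted p = 0.0646), and TMEM70 passed without GFP replicate 3 (−0.18, DESeq2 adjusted p = 0.0344).

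Replicate numbers did not pair the libraries (correlations of same-numbered libraries −0.006654, −0.05795 and 0.02914 over 12654 genes). With a replicate block 20 nuclear members were higher and 16 lower, and 11 and 1 mitochondrial ones; with the block and the GC and length correction the nuclear median was −0.00664.

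With total-count scaling 34 nuclear members were lower, 7 mitochondrial members were higher and the nuclear median was −0.0285; SDHA (−0.0208), COX6B1 (−0.0172) and ATP5IF1 (−0.0083) changed sign without passing. With the GC and length correction the nuclear median was −0.00757, and among the genes chosen by the naming rule the signs turned, with the value under the added block second, for COX6B1 (−0.071, −0.0725), NDUFA4 (0.0806, 0.0807), ATP5MC1 (−0.044, −0.0456), ATP5IF1 (−0.0305, −0.0298) and SDHAF1 (−0.087, −0.0837); GPD2 stood at 0.000129 with both. NDUFA4 passed in the first of these (DESeq2 adjusted p = 0.0345).

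In limma on log2(TPM + 1), 8 nuclear members were higher and 45 lower, 4 mitochondrial ones higher and 4 lower, and the medians were −0.1443 and −0.0247; on log2(TPM + 0.1) these were 8, 44, 4, 4, −0.147 and −0.0247, and without the filter 6, 35, 1 mitochondrial member higher, −0.1433 and −0.0247. On these scales the median of all genes was −0.13, −0.15 and −0.13. Of the 42 nuclear members that passed, NDUFA13 and NDUFB10 turned sign with the GC and length correction, and 8 did on each TPM scale (ATP5PD, NDUFA13, NDUFB10, NDUFB8 and UQCR11 beside those below); none of these then passed. Among the genes of the rule, signs turned with TPM + 1 (the same value without the filter) and TPM + 0.1 for SDHA (−0.1225, −0.1256), COX7A2 (−0.0627, −0.0634), COX6A1 (−0.0302, −0.0305), COX4I1 (−0.0081, −0.0081), COX6B1 (−0.1433, −0.144), ATP5MC1 (−0.0512, −0.0515), ATP5IF1 (−0.1619, −0.1628), SDHAF1 (−0.037, −0.0447), MT-ND3 (−0.0247 in both), MT-ND4L (−0.059), MT-CO2 (−0.0107), MT-CO1 (−0.0644), MT-CO3 (−0.0843, −0.0844), MT-ATP6 (−0.0418) and MT-ATP8 (−0.1342). With TPM + 1 and the filter, limma called SDHA, COX6B1, ATP5IF1, MT-CO1, MT-CO3 and MT-ATP8 lower (adjusted p from 0.00705 to 0.0499). Of 1159 values over the alternatives for the 61 genes the rule chose, which leave out the other members named in the text, 1015 kept direction and call, 71 lost the call, 14 gained it and 59 changed sign.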
